A study of Mus musculus with 3 samples.

Results

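The loci of 7 glial genes were examined in the accessible chromatin of the mouse dentate gyrus. Olig1, Olig2, Sox10 and Mbp mark the oligodendrocyte lineage, and Csf1r, Spi1 and Cx3cr1 mark microglia. The dentate gyrus is a field of the hippocampus built around granule neurons, and it also contains both kinds of glia. ATAC-seq, in which the transposase Tn5 cuts and tags open DNA, had been run on the microdissected dentate gyrus of 3 C57BL/6 mice, adults aged 8 weeks. Each library came from 1 animal. They form 1 group of 3 replicates named E24 in the labels, where neither the meaning of E24 nor a treatment is given. The series concerns chromatin changes after neuronal activation, but no other group was analysed here, so each result below describes these 3 animals and no effect of activity was measured.

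The members are the peaks that overlap 6 fixed windows of the mouse build mm9 by at least 1 bp, joined across animals where they overlap by at least 1 bp. Olig1 and Olig2 share the window chr16:91180000-91310000 (130 kb). The Sox10 window is chr15:78950000-79040000 (90 kb) and the Mbp window is chr18:82590000-82790000 (200 kb). The microglia windows are chr18:61235000-61325000 for Csf1r (90 kb), chr2:90890000-90970000 for Spi1 (80 kb) and chr9:119920000-120010000 for Cx3cr1 (90 kb). This gave 49 joined regions of 84529 in the series, 34 in the oligodendrocyte windows and 15 in the microglia windows. They held 33 peaks of replicate 1, 39 of replicate 2 and 27 of replicate 3. A window holds the gene with sequence around it, and the exons, introns and promoters within it were not placed, because the gene table used here is on another build. The windows can therefore hold parts of other genes. In the order of protein-coding genes of GRCm38, Slc39a13 and Psmc3 precede Spi1 and Mybpc3 follows it, Xirp1 and Ccr8 flank Cx3cr1, Polr2f and Pick1 flank Sox10, Pdgfrb and Hmgxb3 flank Csf1r, and Galr1 and Zfp236 flank Mbp.

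Oligodendrocytes wrap axons in myelin, and they arise from precursor cells that persist in the adult brain. Olig1 and Olig2 are related basic helix-loop-helix transcription factors that lie side by side, and Olig2 is needed to specify the lineage. Sox10 is an HMG-box factor that acts after Olig2 and switches on myelin genes, of which Mbp, encoding myelin basic protein, is a main target. The Mbp gene also has a longer transcription unit, Golli, whose products are made in some neurons and immune cells. Microglia are the resident macrophages of the brain. Spi1 encodes PU.1, the ETS-family factor that sets up the myeloid enhancer repertoire, Csf1r encodes the receptor for the growth factors on which microglia depend for survival, and Cx3cr1 encodes the receptor for fractalkine, a ligand made by neurons. In bulk tissue, fewer cells of a type and less open chromatin per cell cannot be told apart.

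To show the kind of sequence at these genes, the 250 bases before the annotated start are given for Olig2 and Cx3cr1, the 2 of 7 members matched by symbol in the RefSeq promoter table (build GRCm38.p6). The Olig2 sequence is chr16:91225300-91225549 on the + strand and the Cx3cr1 sequence is chr9:120068297-120068546 on the - strand, both GRCm38.p6. These positions are not mm9 positions and were not set against the peaks. Capitals mark matches on either strand to 5 searched motifs: CAGCTG (an E-box), GAGGAA (a core bound by PU.1), ACAAAG (a core bound by SOX factors), TATAAA and CCAAT.
Olig2: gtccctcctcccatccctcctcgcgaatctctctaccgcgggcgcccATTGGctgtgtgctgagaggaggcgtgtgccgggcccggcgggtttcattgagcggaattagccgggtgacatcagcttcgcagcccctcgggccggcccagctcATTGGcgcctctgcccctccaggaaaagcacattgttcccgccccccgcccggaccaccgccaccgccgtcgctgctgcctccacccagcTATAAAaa
Cx3cr1: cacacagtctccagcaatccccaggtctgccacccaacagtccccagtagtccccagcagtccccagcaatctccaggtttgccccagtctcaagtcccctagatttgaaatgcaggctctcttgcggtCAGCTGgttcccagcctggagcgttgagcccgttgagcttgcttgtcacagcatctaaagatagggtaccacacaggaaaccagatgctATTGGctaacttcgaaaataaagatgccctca

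The Olig2 stretch was rich in G and C, at 66.8%, and held 22 CpG dinucleotides. The Cx3cr1 stretch had 53.6% and 4, against medians of 52.4% and 6 over 32851 RefSeq promoters. Olig2 had CCAAT on the opposite strand 203 and 98 bases before the start and TATAAA 8 bases before it. Cx3cr1 had CAGCTG 121 bases before the start and CCAAT on the opposite strand 32 bases before it. No marked matches overlapped. In the same stretch of all promoters, CCAAT was found in 33.8%, CAGCTG in 13.0%, TATAAA in 12.4%, GAGGAA in 23.3% and ACAAAG in 16.5%. A match is a run of letters and not a shown binding site, and GAGGAA and ACAAAG were not among the letters of either stretch.

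The lists differed in length, with 62912 peaks in replicate 1, 68699 in replicate 2 and 48769 in replicate 3, so counts at a locus are read beside the same count over the genome. Peaks of replicate 3 were also narrower, with a median width of 353 bp against 504 bp in replicates 1 and 2. What part this had in the joining by overlap was not tested. Each peak has a score without a unit from the authors' peak calling. Its lowest value was 50.01 in replicates 1 and 3 and 50 in replicate 2, and it is used here only as a rank, given as the percentage of the animal's own peaks with a lower score (score percentile). A percentile of 50 is the middle of the list. No read counts are in the peak lists, so the depth is unknown, and a locus without a peak is not shown to be closed.

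The loci differed in how many peaks they held, how those peaks ranked and how often they recurred. The 200 kb window of Mbp held more peaks than any of the other 5 windows in every animal and 14 of the 20 regions called in all 3 mice. At Olig1/Olig2 and Sox10, the mean density was near that of the autosomes, at 1.02 and 1.04 times, with replicate 3 below it. All but 1 of their peaks lay below the middle of their list. Of the microglia windows, Spi1 held 3 regions called in all 3 animals, Csf1r 1 and Cx3cr1 1. Among autosomal stretches of 80 kb, the width of the Spi1 window, 14.7% held at least 3 such regions. At 90 kb, the width of the Csf1r and Cx3cr1 windows, 64.7% held at least 1. At 200 kb, the width of the Mbp window, 0.108% held at least 14. The map of peaks by animal shows these layouts.

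**Figure D1:**
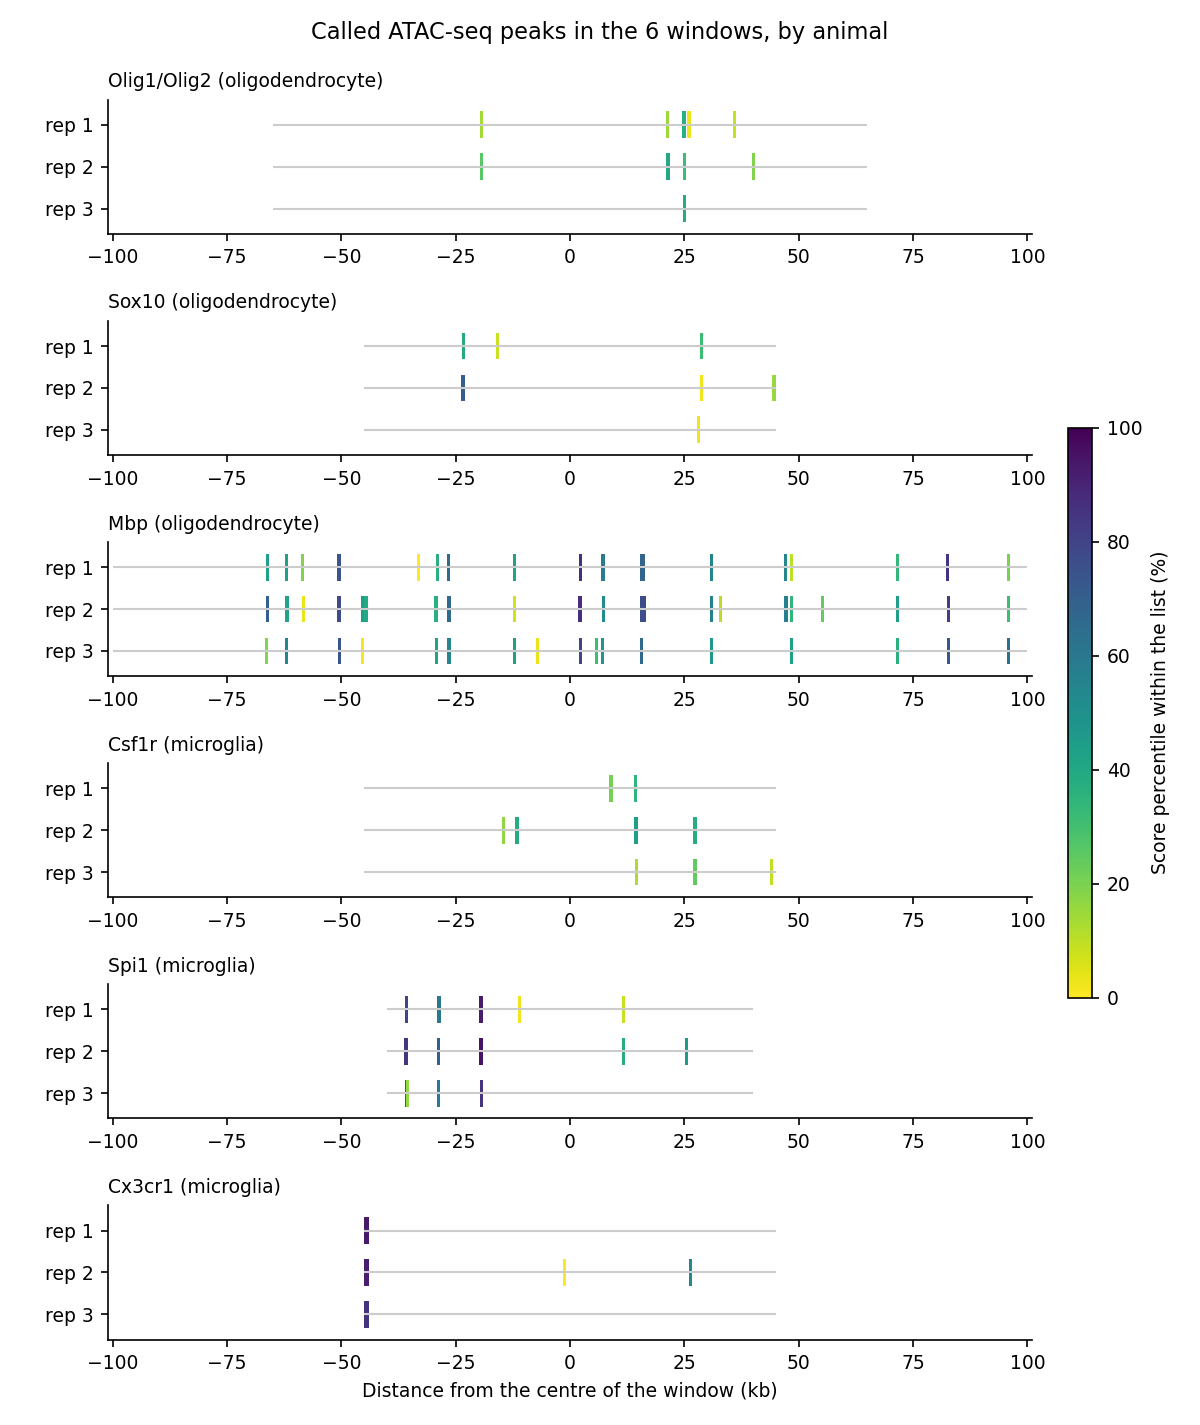
Called peaks in the 6 windows, 1 line per animal, by distance from the centre of the window (kb); each bar is a peak, drawn at least 0.7 kb wide, and its colour is the score percentile within that animal's list. The Mbp window holds 17, 20 and 17 peaks in replicates 1, 2 and 3, while replicate 3 has 1 peak at Olig1/Olig2 and 1 at Sox10.

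Over all 6 windows, 20 of 49 regions (40.8%) were held by all 3 animals, against 43.6% of all regions in the series. Another 9 of 49 were held by exactly 2 animals, against 23.1% of all regions. The remaining 20 of 49 (40.8%) were held by 1 animal, against 33.4% of all regions. The share held by all 3 was thus near that of the series, and the share held by 1 animal was somewhat higher. The oligodendrocyte windows held 15 such regions of 34 (44.1%) and the microglia windows 5 of 15 (33.3%). Of the regions that replicates 1 and 2 shared, replicate 3 also had 71.5% in the whole series. Among the members it had 14 of 16 at Mbp, 1 of 3 at Olig1/Olig2, 0 of 2 at Sox10, 3 of 4 at Spi1, 1 of 1 at Csf1r and 1 of 1 at Cx3cr1. The loci within each cell type were unlike one another, which the summed shares do not show. The share was 60.9% at Mbp (14 of 23 regions), 50% at Spi1 (3 of 6), 33.3% at Cx3cr1 (1 of 3), 16.7% at both Olig1/Olig2 and Csf1r (1 of 6 each) and 0 of 5 at Sox10. These counts are small, and regions of 1 locus are not independent replicates.

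**Figure D2:**
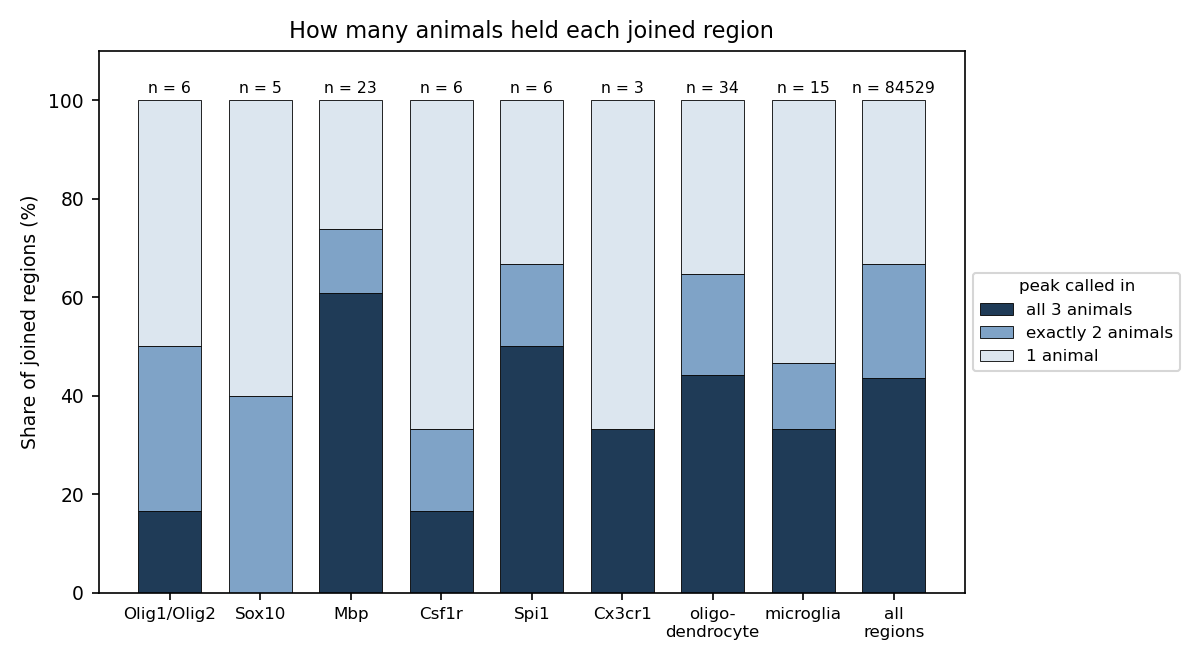
Share of joined regions (%) called in all 3, exactly 2 or 1 of the animals, for each locus, for each cell type and for all regions, with the number of regions above each bar. Mbp has 14 of 23 regions in all 3 animals and Sox10 has 0 of 5, while all regions stand at 43.6%.

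The lineage factors come first. The Olig1/Olig2 window held 5 peaks in replicate 1, 4 in replicate 2 and 1 in replicate 3, or 3.85, 3.08 and 0.769 peaks per 100 kb. The autosomes of the same animals had 2.51, 2.75 and 1.95 peaks per 100 kb. Replicates 1 and 2 were thus above their own autosomal density and replicate 3 below it. The median autosomal stretch of 130 kb held 3, 3 and 2 peaks. The mean was 2.56 ± 1.60 peaks per 100 kb (SD, n = 3). The flanks, meaning the equally wide stretches on both sides, had 2.69 in replicates 1 and 2 and 1.92 in replicate 3. The first 45.5 kb of the window held no peak in any animal.

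A single region of the Olig1/Olig2 window was called in all 3 mice. This was chr16:91269723-91270164, 442 bp wide, with scores of 91.5, 87.1 and 80.5 in replicates 1, 2 and 3. These correspond to score percentiles of 36.5, 31.3 and 39.0, so it stood below the middle of every list. Replicates 1 and 2 shared another 2 regions, both named after their values were seen. One, at chr16:91225464-91225920, had scores of 61.0 and 78.4, and the other, at chr16:91266181-91266637, had 62.1 and 106. The regions from 91266181 to 91285394 formed a group of 5 within 19.2 kb. The region at 91225464 stood apart, 44.3 kb before the shared one. The highest-ranked region of 1 animal was chr16:91284997-91285394, with a score of 68.5 in replicate 2. None of the 10 peaks of this window reached the middle of its list.

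Sox10 had 3 peaks in replicate 1, 3 in replicate 2 and 1 in replicate 3, a mean of 2.59 ± 1.28 peaks per 100 kb (SD, n = 3). Its flanks together were denser in every animal, at 6.67, 7.78 and 2.78 peaks per 100 kb against 3.33, 3.33 and 1.11 in the window. Relative to the autosomes of the same animal, the window stood at 1.33, 1.21 and 0.571, so replicate 3 alone was below 1. The median autosomal stretch of 90 kb held 2, 2 and 1 peaks. No region was held by all 3 mice. The best-scoring one, chr15:78971270-78971994, was named after its values were seen. It had a score of 96.1 in replicate 1 and 236 in replicate 2, which is the score percentile 39.0 in the first and 70.1 in the second. That peak of replicate 2 was the only one of the 17 at Olig1/Olig2 and Sox10 above the middle of its list.

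The count of 0 at Sox10 rests on the rule for joining peaks. Replicates 1 and 2 shared chr15:79023503-79023951, with scores of 83.1 and 51.6, and replicate 3 had a peak at chr15:79022975-79023216 with a score of 51.2. Since 286 bp lay between them, they were not joined. All were close to the lowest score of their list, except that of replicate 1. The highest-ranked region of 1 animal was chr15:79039406-79039766, with a score of 64.6 in replicate 2, close to the end of the window.

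Mbp stood apart from every other window in the density of all its peaks. It held 17 peaks in replicate 1, 20 in replicate 2 and 17 in replicate 3, a density of 8.50, 10 and 8.50 peaks per 100 kb. The mean of 9.0 ± 0.87 (SD, n = 3) was 3.80 ± 0.51 times the autosomal density of the same animal. Chromosome 18 itself is dense in peaks, with 3.27, 3.57 and 2.71 per 100 kb, and the Mbp window lay above this in each animal. Its flanks together had 3.50, 4.25 and 2.75. They were uneven, with 3 peaks in each animal before the window and 11, 14 and 8 after it. Of 12055 tiles of 200 kb on the autosomes, 0.539% held at least 17 peaks in replicate 1, 0.166% at least 20 in replicate 2 and 0.133% at least 17 in replicate 3. The median tile held 4, 5 and 3 peaks. Peaks covered 4.87%, 6.94% and 3.11% of the window in replicates 1, 2 and 3, against 1.53%, 1.71% and 0.846% of the autosomes.

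**Figure D3:**
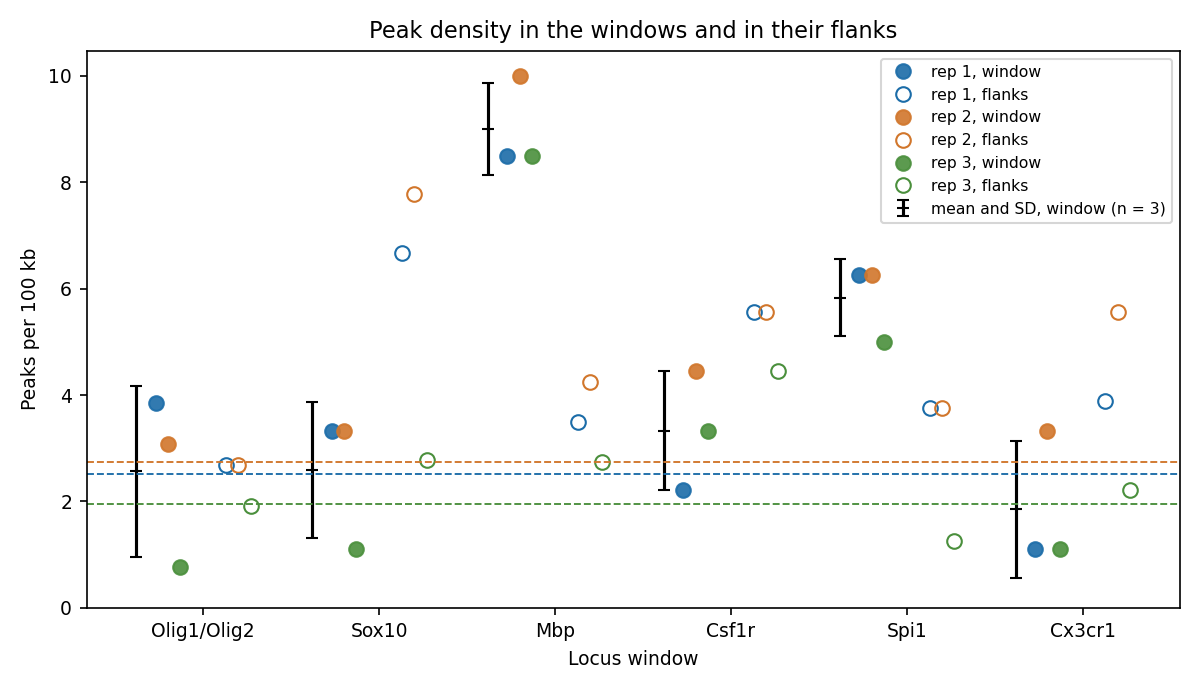
Peaks per 100 kb in each window (filled) and in the equally wide stretches on both sides together (open), by animal; black bars are the mean and SD over the 3 animals for the window, and dashed lines are the autosomal density of each animal. Mbp stands at 8.50, 10 and 8.50, above its flanks in every animal, while Sox10, Csf1r and Cx3cr1 lie below theirs in every animal.

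The 14 Mbp regions called in all 3 mice spanned 163 kb. Their starts were 2.84 to 23.2 kb apart, with a median of 13.4 kb over 13 distances, so they were spread along the locus and not gathered at 1 site. They were 477 to 1338 bp wide. The highest-ranked was chr18:82691750-82692614, which scored 390, 490 and 203 in replicates 1, 2 and 3, at score percentiles of 86.2, 87.5 and 79.5. The widest was chr18:82705218-82706555, with scores of 194, 301 and 140 and percentiles of 67.9, 76.8 and 66.7. Both stood above the middle of every list.

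Peaks at Mbp were frequent but not exceptional in score. Of the 14 shared regions, 5 were above the middle of the list in all 3 animals and 4 were below it in all 3. The median peak of the window had a percentile of 43.6, 44.3 and 46.0. A second high region, chr18:82772295-82773023, scored 365, 377 and 166, and another, chr18:82639102-82639875, scored 238, 311 and 170. The region chr18:82785690-82786191 had score percentiles of 20.2, 31.5 and 63.3. Replicate 3 had the highest percentile in 5 of the 14 shared regions, this one included. These last 3 were named after their values were seen. The highest-ranked region of 1 animal was chr18:82645017-82645895, with a score of 104 in replicate 2. The first 33.5 kb of the window held no peak in any animal, and the nearest peak before the window ended 106088, 106083 and 106128 bp away from it in replicates 1, 2 and 3.

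Replicate 3 had the shortest list, and the loci followed this unequally. Over all peaks it had 0.775 times the number of replicate 1 and 0.710 times that of replicate 2. At Mbp these ratios were 1.0 and 0.85, at Olig1/Olig2 0.20 and 0.25, and at Sox10 0.333 and 0.333. At Spi1 they were 0.8 and 0.8, at Csf1r 1.5 and 0.75, and at Cx3cr1 1.0 and 0.333. The ratios at Olig1/Olig2, Sox10 and Cx3cr1 rest on 1 peak of replicate 3 at each. Summed over the microglia windows the ratios were 1.0 and 0.667. Summed over the 3 oligodendrocyte windows they were 0.76 and 0.704, near those of the whole lists. Accordingly, the summed density relative to the autosomes was nearly equal in the 3 animals, at 2.37, 2.34 and 2.32. At Mbp alone it was 3.38, 3.64 and 4.36, and at Olig1/Olig2 with Sox10 it was 1.45, 1.16 and 0.467. The part of list length and of depth in these differences was not tested.

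Among the microglia genes, Spi1 had the densest window. It held 5 peaks in replicate 1, 5 in replicate 2 and 4 in replicate 3, a mean of 5.83 ± 0.72 peaks per 100 kb (SD, n = 3), and its flanks had 3.75, 3.75 and 1.25. Relative to the autosomes, Spi1 stood at 2.49, 2.28 and 2.57, above 1 in each animal. Of 30150 tiles of 80 kb, 10.6%, 13.4% and 11.6% held at least as many peaks, so such a density is not rare. At or above the middle of the list lay 3 Spi1 peaks in each animal, against 8, 9 and 7 over the 200 kb of Mbp. By length, such peaks were thus about as dense at Spi1. The 3 regions called in all mice lay in the first 21.1 kb of the window. The highest-ranked, and also the widest, was chr2:90910155-90911061, with scores of 583, 816 and 254 at percentiles of 92.9, 94.9 and 85.2.

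The other shared Spi1 regions were chr2:90893814-90894688, which scored 295, 425 and 164, and chr2:90900879-90901659, which scored 155, 234 and 118. In the first of these, replicate 3 had 2 separate peaks, and the higher is given. Beyond these, the rest of the window held 3 regions, none of them in replicate 3. Of these, chr2:90941544-90941886 was shared by replicates 1 and 2 with scores of 56.6 and 100.03, and chr2:90955130-90955636 was the highest-ranked region of 1 animal, at 120 in replicate 2. The strong Spi1 peaks were thus all at 1 end of the window, and whether they belong to Spi1 or to its neighbours Slc39a13 and Psmc3 was not determined.

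Csf1r had 2 peaks in replicate 1, 4 in replicate 2 and 3 in replicate 3, a mean of 3.33 ± 1.11 peaks per 100 kb (SD, n = 3). Relative to the autosomes of the same animal, the window stood at 0.885, 1.62 and 1.71 in replicates 1, 2 and 3. It had 2.22, 4.44 and 3.33 peaks per 100 kb, against 3.27, 3.57 and 2.71 on chromosome 18. The flanks of the window together were denser in each animal, at 5.56, 5.56 and 4.44. They held 7, 7 and 5 peaks before the window and 3 in each animal after it. All 9 peaks were below the middle of their list. The only region called in all 3 mice was chr18:61293942-61294859, which scored 88.8, 115 and 56.7, at percentiles of 35.0, 43.8 and 12.2. The peak of replicate 1 and that of replicate 3 in it overlapped only in part, and under a reciprocal overlap of 50% no Csf1r region was held by all 3. The highest-ranked region of 1 animal, chr18:61267956-61268782, had a score of 103 in replicate 2. Stronger peaks lay just outside, where the first after the window began 11040, 11012 and 11448 bp from its end and scored 497, 920 and 273. They are named after their values were seen and are not counted as members.

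Cx3cr1 had the fewest regions, with 1 peak in replicate 1, 3 in replicate 2 and 1 in replicate 3, a mean of 1.85 ± 1.28 peaks per 100 kb (SD, n = 3). Relative to the autosomes of the same animal, the window stood at 0.442, 1.21 and 0.571, so replicate 2 alone was above 1. The flanks of the window together were denser in each animal, at 3.89, 5.56 and 2.22 against 1.11, 3.33 and 1.11 in the window. The 1 region called in all mice was strong, with scores of 600, 642 and 256 at percentiles of 93.3, 91.9 and 85.4. It lay at the edge of the window, chr9:119919931-119921160, and began 69 bp before it. Whether it belongs to Cx3cr1 or to a neighbouring gene such as Xirp1 was not determined. With peaks required to lie wholly inside, no Cx3cr1 region was held by all 3. From there to the end of the window, 88.9 kb in replicate 1 and 89.0 kb in replicate 3 held no peak. Replicate 2 alone had a peak at chr9:119991050-119991558, with a score of 147, and one with a score of 50.04, just above the lowest in its list, at chr9:119963673-119963994. The interior of the Cx3cr1 window thus had no region called in more than 1 animal.

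**Figure D4:**
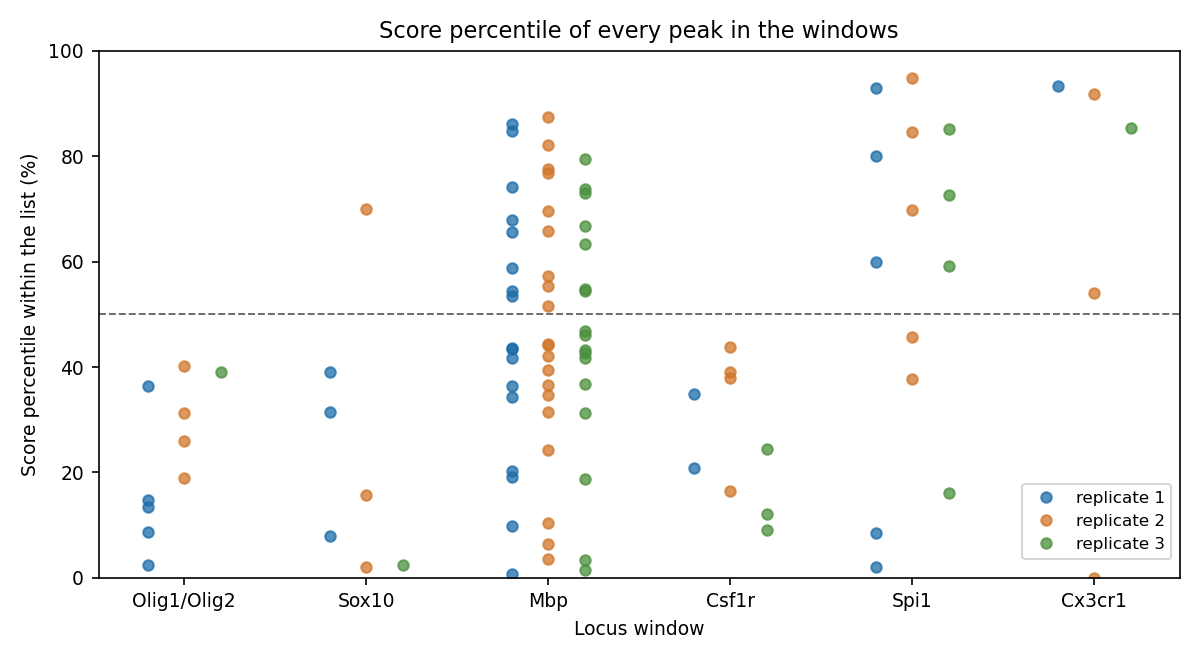
Score percentile of every peak in the 6 windows within its own list (%), by locus and animal; the dashed line is the middle of the list. All peaks at Olig1/Olig2 and Csf1r lie below it, those at Mbp are spread from 0.683 to 87.5, and the highest are at Spi1 and Cx3cr1, at 94.9 and 93.3.

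Over all regions of a cell type, the median score percentile, averaged over the animals that held the region, was 30.9 in the oligodendrocyte windows and 31.2 in the microglia windows. Among the regions held by all 3 it was 46.7 for the 15 oligodendrocyte regions, 14 of them at Mbp, and 79.1 for the 5 microglia ones. The median over all regions held by all 3 animals in the series was 65.4. The oligodendrocyte regions ranged from 29.1 to 84.4 and the microglia regions from 30.3 to 91.0, so the ranges overlapped widely. Of the 5 microglia regions, 4 were those at the start of the Spi1 window and at the edge of the Cx3cr1 window. The 29 regions not held by all 3 had a median of 18.97, against 23.1 over all such regions.

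The order of scores among the 20 shared regions was similar between animals. Spearman's correlation across them was 0.91 for replicate 1 with 2, 0.83 for replicate 1 with 3 and 0.75 for replicate 2 with 3. This is a description across neighbouring regions of 6 loci in the same 3 libraries and not a test.

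Set side by side, the oligodendrocyte windows had 5.95, 6.43 and 4.52 peaks per 100 kb in replicates 1, 2 and 3, and the microglia windows 3.08, 4.62 and 3.08. Relative to the autosomes of the same animal, the oligodendrocyte windows stood at 2.37, 2.34 and 2.32. The microglia windows stood at 1.23, 1.68 and 1.58, also above 1 in each animal. The flanks had means of 3.65 peaks per 100 kb around the oligodendrocyte windows and 4.04 around the microglia windows. In the windows, the oligodendrocyte mean was 5.63 ± 0.99 and the microglia mean 3.59 ± 0.89 (SD, n = 3). The ratio within an animal was 1.93, 1.39 and 1.47, a mean of 1.60 ± 0.29, and it was above 1 in 3 of 3 animals. An exact two-sided sign-flip permutation test of the log2 ratio over the 3 animals gave p = 0.25. This is the smallest value the design allows, so the test cannot pass a threshold of 0.05. The means given here are of the ratios without the logarithm. All animals share the same fixed windows, so this test does not measure the spread between loci. This ratio rested on Mbp. Without it, Olig1/Olig2 and Sox10 together had 3.64, 3.18 and 0.909 peaks per 100 kb, and the ratio to the microglia windows was 1.18, 0.689 and 0.295. Its mean of 0.722 ± 0.44 was on the other side of 1, and it was above 1 in 1 of 3 animals. The same exact sign-flip permutation test of the log2 ratio gave p = 0.50.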

How the data were processed

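The submitters' processing notes name the aligner Bowtie2 and the build mm9. The deposited files are 1 peak list per sample, with peak names of the caller MACS and a deposited score per peak that has no unit. For versions, settings, duplicate handling and any Tn5 shift the sources used here give nothing. Start positions are the deposited ones plus 1, so that they count from 1, and end positions are as deposited. Peaks were counted in a window where they overlapped it by 1 bp, and joined across lists where they overlapped by 1 bp. Density is peaks per 100 kb of window. Autosomal density is the number of peaks on chromosomes 1 to 19 divided by the summed distance from first to last peak. Tiles are adjacent stretches of window width. Ranks used the highest peak of an animal in a region. The code for joining was run on simulated lists with known overlaps, which checks the code and not the regions of these data. The members and lists were chosen with earlier results of these data known. Regions named by rule are, per window, the highest-ranked and the widest held by all 3 animals and the highest-ranked of 1 animal. All others named by position were chosen after their values were seen, also where the text does not say so. Alternatives changed the overlap, the peaks used, the window edges, the animals and the loci. Further markers of both cell types were not computed, since no mm9 annotation was used. The software was scipy 1.17.1, pandas 2.3.3, numpy 2.4.6 and matplotlib 3.10.9 under Python 3.11.15. Errors are SD over 3 animals, whose number limits the precision.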

Additional observations from a re-analysis of the deposited data

How the results depend on the processing

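Of 50 alternative values for the counts and densities by cell type, 38 stayed within a factor of 1.5 for counts or 1 SD for densities. The density ratio stayed above 1 in 14 of 15 alternatives, but its size ranged from 0.722 to 2.42. Without the Mbp locus, the oligodendrocyte regions held by all 3 fell from 15 to 1, the density from 5.63 to 2.58 and the density ratio from 1.60 to 0.722, on the other side of 1. Without Spi1 the microglia regions were 2 instead of 5 and the density 2.59 instead of 3.59, and the ratio rose to 2.42. Without Cx3cr1 the microglia density was 4.51, and without Olig1/Olig2 the oligodendrocyte density was 7.01. The highest-scoring 50% of each list gave 5 oligodendrocyte regions and densities of 1.98 and 1.67 for the 2 cell types, since fewer peaks are used, and a ratio of 1.19. An equal number of peaks in every list gave an oligodendrocyte density of 4.29. A reciprocal overlap of 50%, and windows cut by 10% on both sides, each gave 3 microglia regions, and the cut windows a ratio of 2.16. Leaving out 1 animal gave 15 to 21 oligodendrocyte and 5 to 6 microglia regions, densities of 5.24 to 6.19 and 3.08 to 3.85, and ratios of 1.43 to 1.70. Without replicate 3, Olig1/Olig2 had 3 regions and Sox10 2 held by the remaining animals, where fewer animals raise the count by construction. Without replicate 1, Csf1r had 2. Alternatives that used the midpoint of a peak were chosen after seeing the data. No paired analysis was possible because the samples form 1 group and cannot be paired across groups; the density ratio compares windows within each animal.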
